A study of Mus musculus with 7 samples.

Results

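Unipolar brush cell genes are described here in whole cerebellum with and without Cic. The 6 genes, Eomes, Lmx1a, Sln, Samd3, Plcb1 and Dgkb, were found by symbol among the 24421 genes counted in each of 7 libraries, and all 6 passed the filter on low counts. They were selected on their expression in these same libraries, so both the CicKO to Wildtype difference and the level in the libraries numbered 3 count as used. Both are given as a description, and counts of members past a threshold are set beside the share of all genes without being read as tests of the members. The CicKO group was 4 C57BL/6 libraries with the genotype En1-Cre; Cicflox/flox, in which Cre is made where En1 was active, in the midbrain and hindbrain of the embryo, and deletes floxed Cic from cells of that lineage. The Wildtype group was 3 C57BL/6 libraries whose genotype reads Cicflox/+, with no Cre named, so all 7 carried a floxed Cic allele, and Cre and loss of Cic cannot be told apart. Age, sex and litter are not in the labels, which also do not state that each library came from its own animal, so p-values measure only the spread between these libraries, which may be technical. The comparison asks which cerebellar transcripts differ when Cic, a transcriptional repressor that binds ATXN1, is lost in that lineage.

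Unipolar brush cells are excitatory interneurons of the granular layer, concentrated in the vestibular lobules, where each receives a mossy fibre on a brush-shaped dendrite and prolongs its signal. They arise from the rhombic lip and keep the T-box factor Eomes, also called Tbr2, as adults. Eomes is their defining marker in the cerebellum, Lmx1a is a LIM homeobox factor of the roof plate and rhombic lip that is also used in choroid plexus, and Sln encodes sarcolipin, a small membrane peptide that inhibits the SERCA calcium pumps. Samd3 encodes a protein with a SAM domain. Plcb1 encodes a phospholipase C that makes inositol trisphosphate and diacylglycerol downstream of Gq-coupled receptors, and Dgkb encodes a kinase that turns diacylglycerol into phosphatidic acid.

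The genes lie on GRCm38 chromosomes 9 (Eomes, 118478212 to 118486132, and Sln, 53850164 to 53854560), 1 (Lmx1a, 167689237 to 167848741), 10 (Samd3, 26229707 to 26272172), 2 (Plcb1, 134786067 to 135475258) and 12 (Dgkb, 37817726 to 38634239). All are protein-coding and on the plus strand. An antisense gene shares exon sequence with Eomes (Gm33460) and with Plcb1 (9630028H03Rik). The strand setting of the counting is not given in the sources used here, so reads of these pairs cannot be told apart.

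RefSeq promoters on build GRCm38.p6 were matched for 5 of the 6 members, Sln being the one not matched. The stretches before the start of Eomes and Samd3 are shown because Eomes is a T-box factor and Samd3 was the only member whose window held the T-box half-site searched. Capitals mark that half-site, read on the minus strand, and both sequences run 5′ to 3′ on the plus strand over the 250 bases before the start.
Eomes, chr9:118477939-118478188: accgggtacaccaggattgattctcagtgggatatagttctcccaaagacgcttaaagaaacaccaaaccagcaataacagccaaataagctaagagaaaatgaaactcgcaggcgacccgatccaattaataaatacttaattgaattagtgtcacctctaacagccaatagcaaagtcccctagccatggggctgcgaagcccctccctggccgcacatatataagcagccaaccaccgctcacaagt
Samd3, chr10:26229457-26229706: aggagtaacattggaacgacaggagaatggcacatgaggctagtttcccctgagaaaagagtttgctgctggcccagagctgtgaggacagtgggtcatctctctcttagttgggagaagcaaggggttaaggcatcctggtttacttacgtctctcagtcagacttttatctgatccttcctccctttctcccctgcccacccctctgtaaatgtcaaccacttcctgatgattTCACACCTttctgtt
The half-site searched was AGGTGTGA on either strand, over 250 bases before to 50 after each start. It occurred in 1.28% of the 32851 promoters in the table, and in Samd3 it lay 15 bases before the start. The CIC octamer, spelled TGAATGAA, TGAATGGA, TCAATGAA or TCAATGGA on either strand, occurred in 3.84% of all promoters and in none of the 5 member windows, which says only that these letters are not in those windows. The 250 bases before the start were 46.4% G or C in Eomes, 48.8% in Samd3, 45.6% in Dgkb, 59.2% in Lmx1a and 71.2% in Plcb1, against a median of 52.4% over all promoters.

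The libraries held between 102653765 and 121285349 gene counts, so 3 counts correspond to between 0.0247 and 0.0292 CPM, the count scaled to library size. Such limits cover counting error only. Cic itself was at 144 to 147 CPM in the CicKO libraries and 216 to 257 CPM in the Wildtype libraries (log2 fold change -0.66, SE 0.0622, edgeR adjusted p = 0.00256). CicKO 3 and Wildtype 3 stood apart from the other libraries in choroid plexus transcripts. The 15 listed choroid plexus genes, none of them at 0 in all libraries, summed to 8709 CPM in CicKO 3 and 50.3 to 134 CPM in the other CicKO libraries, and to 6276 CPM in Wildtype 3 and 81.6 and 150 CPM in Wildtype 1 and 2. Granule and Purkinje cell markers were high in every library, as in cerebellum, with the 14 listed for each cell type summing to between 6427 and 7804 CPM and between 9320 and 12657 CPM.

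Eomes, Lmx1a, Sln and Samd3 are called the restricted markers below. The name is only a label, because restriction to a cell type was not measured and these genes also varied most among the members. Eomes had the highest level of them per length of exon. It was at 17.04, 34.2, 51.2 and 17.2 CPM in CicKO libraries 1 to 4, and at 29.5, 47.4 and 43.3 CPM in Wildtype libraries 1 to 3 (means 29.9 ± 16.3 and 40.1 ± 9.38 CPM, SD, n = 4 and 3). CicKO 1 and 4 were below every Wildtype library, CicKO 2 was above Wildtype 1, and CicKO 3 was the highest of all. The log2 fold change was -0.42 with an SE of 0.443.

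Sln had the largest fold difference between the groups among the members. It was at 0.118, 0.137, 1.27 and 0.162 CPM in CicKO libraries 1 to 4, from 12, 14, 144 and 17 counts, and at 1.54, 0.925 and 1.66 CPM in Wildtype libraries 1 to 3, from 189, 99 and 189 counts. CicKO 1, 2 and 4 lay far below all 3 Wildtype libraries, and CicKO 3 lay among them. The log2 fold change was -1.69 (SE 0.861), or 0.309-fold.

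Lmx1a ranged most widely within a genotype. It was at 0.226, 0.617, 5.25 and 0.333 CPM in CicKO libraries 1 to 4 and at 1.07, 0.990 and 3.77 CPM in Wildtype libraries 1 to 3, from 23 to 597 and from 106 to 430 counts. CicKO 1, 2 and 4 were again below every Wildtype library, and CicKO 3 was above all of them, 23.2-fold above the lowest CicKO library. The log2 fold change of -0.27 was small beside its SE of 1.21.

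Samd3 also separated CicKO 3 from the other CicKO libraries. It was at 0.236, 0.323, 1.56 and 0.124 CPM in CicKO libraries 1 to 4 and at 0.849, 0.495 and 1.55 CPM in Wildtype libraries 1 to 3, from 13 to 177 and from 53 to 177 counts. CicKO 1, 2 and 4 were below every Wildtype library, and CicKO 3 was level with Wildtype 3. Its log2 fold change was -0.78 (SE 0.852).

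The signalling enzymes behaved otherwise. Plcb1 was at 84.9, 79.0, 82.3 and 72.9 CPM in CicKO libraries 1 to 4 and at 81.9, 86.5 and 86.1 CPM in Wildtype libraries 1 to 3 (log2 fold change -0.09, SE 0.0575). Dgkb was at 31.5, 29.3, 20.9 and 27.7 CPM in CicKO libraries 1 to 4 and at 26.7, 31.2 and 28.6 CPM in Wildtype libraries 1 to 3 (log2 fold change -0.08, SE 0.132). The groups overlapped for both enzymes, and CicKO 3, the highest library for Eomes, Lmx1a and Samd3, was the lowest for Dgkb.

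**Figure D1:**
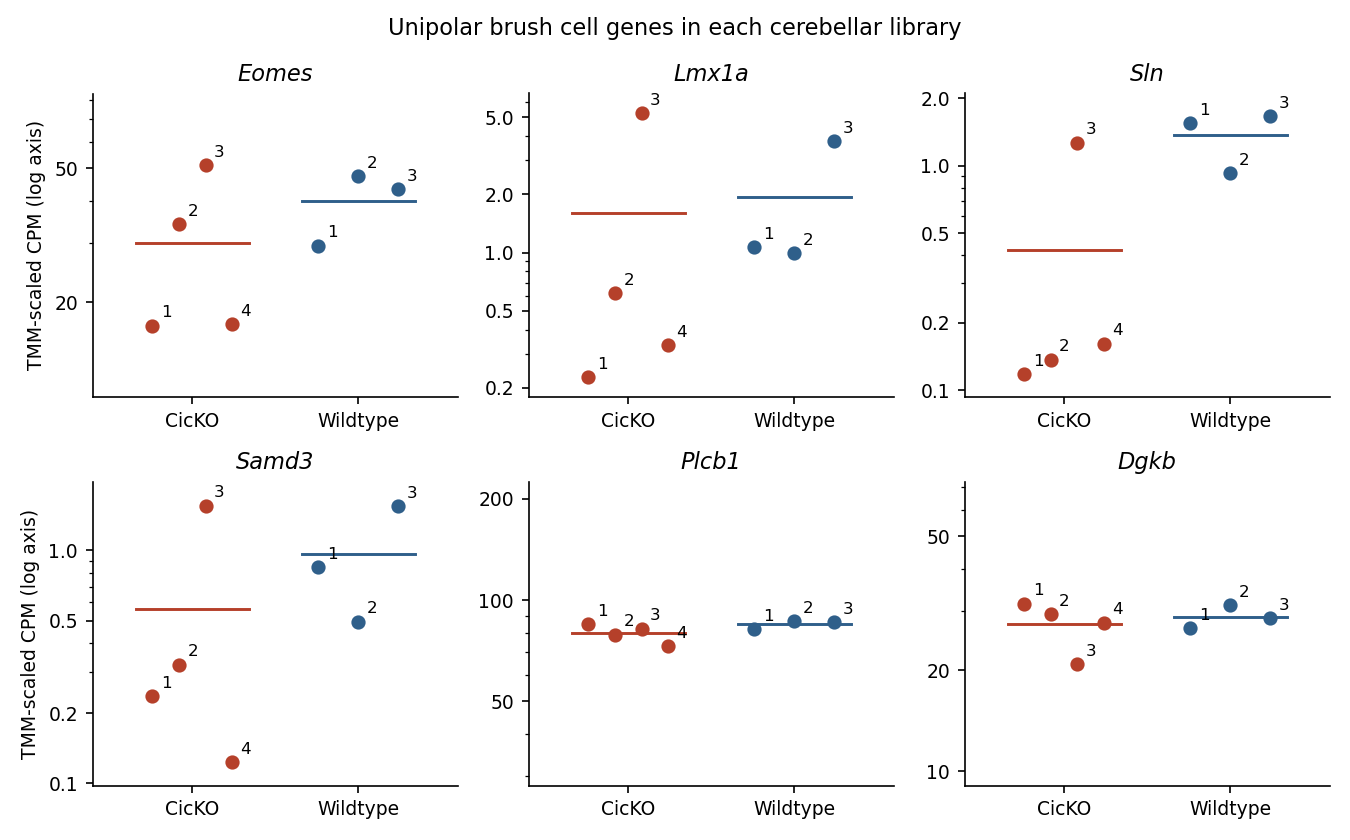
TMM-scaled CPM of each member (log axis, a separate scale in each panel) in the CicKO libraries (red, left) and the Wildtype libraries (blue, right). Points are libraries labelled by replicate number and lines are group means; for Lmx1a, Sln and Samd3 CicKO 1, 2 and 4 sit below every Wildtype library while CicKO 3 sits among or above them.

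By edgeR's quasi-likelihood test 0 of the 6 members were called at an adjusted p of 0.05, where 2.08% of all 16905 genes were, 1.25% higher and 0.828% lower in CicKO. At an unadjusted p below 0.05 edgeR gave 0 members and 16.2% of all genes (2741), and DESeq2 called 0 members and 6.87% of genes. All 6 log2 fold changes were negative, with a median of -0.35, against a median of 0.00 with 51.2% negative over all genes tested. The groups overlapped for all 6 members, and did not overlap for 15.4% of genes tested, 7.06% higher and 8.36% lower in CicKO. In bulk tissue, fewer cells of a type and less RNA per cell cannot be told apart.

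Spread between libraries set the members apart from each other. The fitted biological coefficient of variation was 102% for Lmx1a, 77.4% for Sln, 76.0% for Samd3 and 39.9% for Eomes, each above that of at least 94.8% of genes tested, whereas Dgkb had 13.6% and Plcb1 6.50%, against a median of 11.9% over all genes. Within the CicKO group the highest library exceeded the lowest 12.6-fold for Samd3, 10.7-fold for Sln and 1.51-fold for Dgkb, and within the Wildtype group 3.13-fold, 1.79-fold and 1.17-fold. For Plcb1 these ratios were 1.17 and 1.06.

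Levels per kilobase of exon put Eomes beside Plcb1 rather than beside the other restricted markers. In the CicKO libraries Eomes averaged 7.20 ± 3.92 and Plcb1 7.18 ± 0.468 CPM per kilobase, Dgkb 2.41 ± 0.404, Lmx1a 0.473 ± 0.717, Sln 0.319 ± 0.428 and Samd3 0.148 ± 0.177 (SD, n = 4). In the Wildtype libraries the averages were 9.64 ± 2.26 for Eomes, 7.63 ± 0.230 for Plcb1, 2.53 ± 0.201 for Dgkb, 1.04 ± 0.299 for Sln, 0.572 ± 0.466 for Lmx1a and 0.255 ± 0.142 for Samd3 (SD, n = 3). The first pair in this order, and Lmx1a, Sln and Samd3 among themselves in the CicKO libraries, differed by less than their spread, while Dgkb was below Plcb1 by more than the spread in both groups. In the Wildtype libraries Sln and Lmx1a lay about 1 SD of Lmx1a apart.

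The libraries numbered 3 were compared with the rest of their own group as a check on dissection. On the log2 CPM scale CicKO 3 exceeded the mean of CicKO 1, 2 and 4 by 3.80 for Lmx1a, 3.04 for Sln, 2.77 for Samd3 and 1.25 for Eomes, by 0.06 for Plcb1, and was lower for Dgkb (-0.50). Wildtype 3 exceeded the mean of Wildtype 1 and 2 by 1.85 for Lmx1a, 1.23 for Samd3, 0.47 for Sln, 0.21 for Eomes and 0.03 for Plcb1, with Dgkb at -0.01; for Eomes the sign depended on Wildtype 1, without which it was -0.13. Differences above 1 were seen for 4 of the 6 members in CicKO 3, where 4.41% of all genes passed that size, and for 2 of the 6 in Wildtype 3, where 2.67% did. The median difference of the members was 2.01 in CicKO 3 and 0.34 in Wildtype 3, each library against the rest of its group. For the 15 choroid plexus genes the medians were 6.17 and 4.78, and all 15 exceeded 1 in both libraries.

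**Figure D2:**
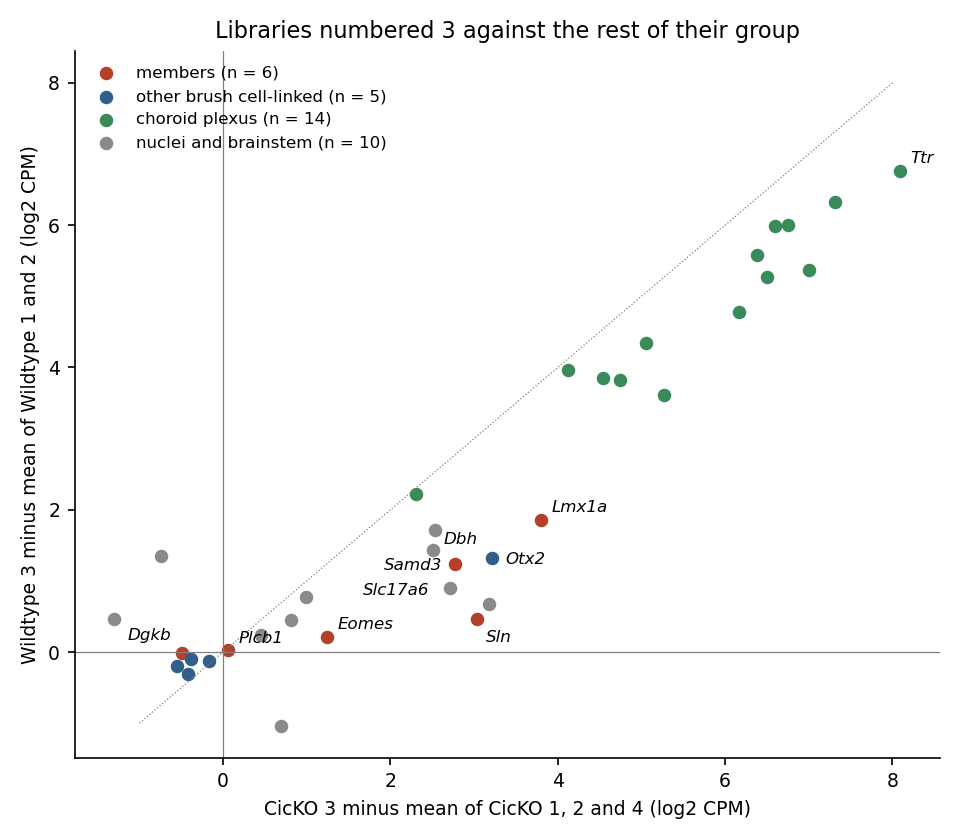
Difference in log2 CPM of CicKO 3 from the mean of CicKO 1, 2 and 4 (x axis) against that of Wildtype 3 from the mean of Wildtype 1 and 2 (y axis), for the members, other genes linked to unipolar brush cells, choroid plexus genes and genes of cerebellar nuclei and brainstem; each point is a gene, Otx2 is drawn with the other brush cell genes although the choroid plexus list also holds it, and the dotted line marks equal differences. Lmx1a, Sln, Samd3 and Eomes lie to the right of zero and below the dotted line, and Plcb1 and Dgkb lie near zero on the y axis, with Dgkb at -0.50 on the x axis.

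Choroid plexus sums and the levels of Lmx1a, Sln and Samd3 ranked the remaining libraries alike only in part. CicKO 1 and 2 had sums of 50.3 and 55.3 CPM, below Wildtype 1 and 2, and were below both for these markers too. CicKO 4 had a choroid plexus sum of 134 CPM, above the 81.6 CPM of Wildtype 1. Sln was at 0.162 CPM in CicKO 4 and 1.54 CPM in Wildtype 1. For Lmx1a the same libraries had 0.333 and 1.07 CPM, and for Samd3 0.124 and 0.849 CPM. Ttr made up 91.2 CPM of the CicKO 4 sum and 25.8 CPM of the Wildtype 1 sum, and without it their order was reversed. Otx2, also listed with the other brush cell genes, made up 5.40 and 23.6 CPM of these sums. Without Ttr and Otx2 the sum of CicKO 4 was again above that of Wildtype 1. The part of choroid plexus content in these differences was not tested. Without CicKO 3, 3 of the 6 members (Lmx1a, Sln and Samd3) were lower in every CicKO library than in every Wildtype library, as were 13.4% of all genes then tested.

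Leaving out CicKO 3 moved the log2 fold changes of Lmx1a, Sln and Samd3 by more than their within-group SD of log2 CPM, and that of Eomes by less. The log2 fold changes without it were -3.30 for Sln (SE 0.305), -2.31 for Lmx1a (SE 0.649), -2.08 for Samd3 (SE 0.492) and -0.81 for Eomes (SE 0.347), against -0.10 for Plcb1 and 0.03 for Dgkb. Without both libraries numbered 3 they were -3.14, -1.39, -1.56 and -0.75 for Sln, Lmx1a, Samd3 and Eomes, and -0.09 and 0.03 for Plcb1 and Dgkb. In both cases 1 member, Sln, passed the edgeR threshold, as did 5.03% and 2.38% of genes tested; these values helped choose Sln, so this is no test of it. Adding a choroid plexus score to the fit of all 7 libraries gave -2.19 for Sln (SE 0.486), -0.72 for Lmx1a (SE 0.382), -0.999 for Samd3 (SE 0.399) and -0.44 for Eomes (SE 0.364), and 0 members passed the threshold.

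**Figure D3:**
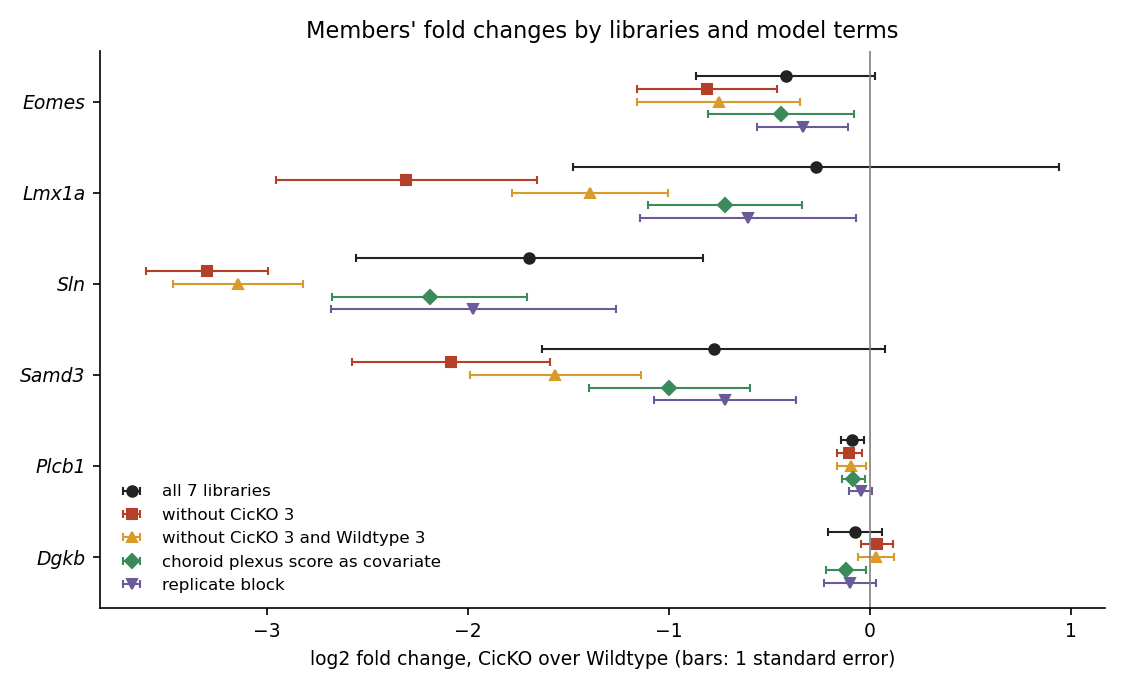
Log2 fold change of each member, CicKO over Wildtype (x axis; bars are 1 standard error), from all 7 libraries, without CicKO 3, without CicKO 3 and Wildtype 3, with a choroid plexus covariate, and with the replicate block. Sln runs between -3.30 and -1.69 over these settings and Plcb1 stays near zero; Dgkb turns positive in the settings that leave out CicKO 3.

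Single libraries also decided the sign of Lmx1a. Its log2 fold change was positive without CicKO 1 (0.09), CicKO 4 (0.07) or Wildtype 3 (0.64), with an SE of at least 1.19 each time. Eomes, Sln, Samd3 and Plcb1 stayed negative under all 15 alternatives, at -0.89 to -0.23, -3.30 to -1.39, -2.08 to -0.26 and -0.12 to -0.05. With the replicate number as a block, which sets CicKO 4 aside, Eomes had -0.34 (SE 0.225), Lmx1a -0.61 (SE 0.538), Sln -1.97 (SE 0.710) and Samd3 -0.72 (SE 0.354).

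The restricted markers varied together across the 7 libraries. Pearson correlations of log2 CPM were 0.94 for Lmx1a with Samd3, 0.89 for Sln with Samd3, 0.86 for Eomes with Lmx1a, 0.84 for Lmx1a with Sln, 0.81 for Eomes with Samd3 and 0.73 for Eomes with Sln. Spearman values of the same pairs ran from 0.54 (Eomes with Sln) to 0.96 (Lmx1a with Samd3), with 0.79 for Sln with Samd3. Plcb1 had Pearson correlations of 0.39 to 0.60 with these genes, and Dgkb had -0.67 to -0.39. These are descriptions over 7 libraries that share the difference in choroid plexus content, with CicKO 3 and Wildtype 3 at the high end.

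Markers of cerebellar nuclei and brainstem differed in how they varied with Eomes. Slc17a6, chosen here after its values were seen as the one closest to Eomes among the 5 of this list at a mean of at least 1 CPM, the vesicular glutamate transporter of many brainstem and nuclear neurons, was at 1.605, 13.0, 22.7 and 1.95 CPM in CicKO libraries 1 to 4 and at 14.9, 13.6 and 26.5 CPM in Wildtype libraries 1 to 3. CicKO 1 and 4 were the lowest libraries for both genes, and the correlation of their log2 CPM was 0.93 (Spearman 0.75). For the others it was 0.66 (Spp1), -0.09 (Th), -0.21 (Tbr1) and -0.60 (Tph2). Of the 10 genes of the list that were tested, 7 had a log2 fold change above 0 and the median was 0.78, whereas Slc17a6 had -0.90 (SE 1.00, edgeR adjusted p = 0.716). The 18 genes listed for nuclei and brainstem summed to 57.6, 87.3, 133 and 58.9 CPM in CicKO libraries 1 to 4 and to 99.8, 52.8 and 111 CPM in Wildtype libraries 1 to 3, with none at 0 in all libraries. In CicKO 2 and Wildtype 2, Slc17a6 was at 13.0 and 13.6 CPM, and Sln was at 0.137 and 0.925 CPM, from 14 and 99 counts. The sums of the list in these libraries were 87.3 and 52.8 CPM. Th made up 31.7 and 10.8 CPM of these sums, Spp1 33.1 and 26.0 CPM, and Tph2 5.07 and 0.850 CPM. Th was higher in every CicKO library than in every Wildtype library, as were 7.06% of genes tested. Tissue content and genotype differences of single genes cannot be told apart in these sums. The part of tissue content in the members' differences was not tested.

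**Figure D4:**
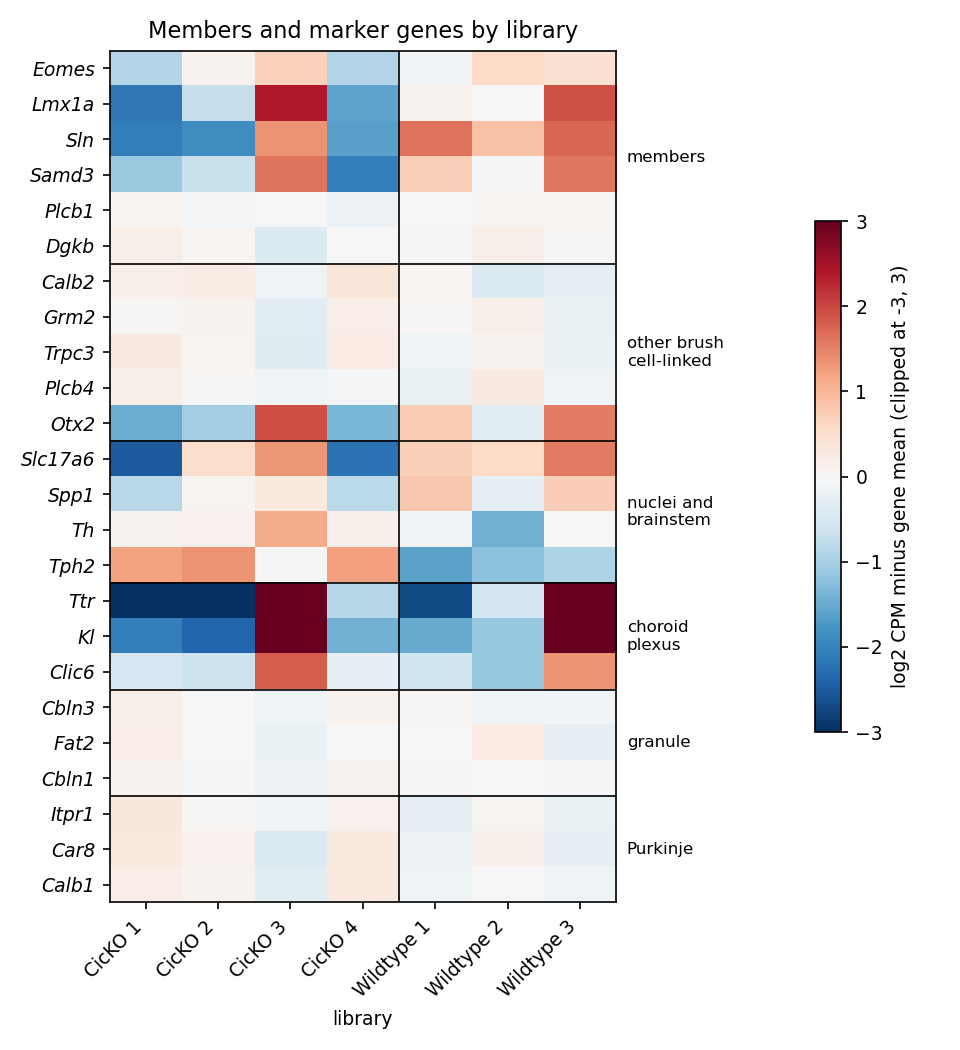
Log2 CPM minus the gene's mean over the 7 libraries (colour, clipped at -3 and 3) for the members, other genes linked to unipolar brush cells and markers of neighbouring cells (rows), in the CicKO libraries on the left and the Wildtype libraries on the right. Eomes, Lmx1a, Sln and Samd3 are low in CicKO 1 and 4 and high in CicKO 3 and Wildtype 3, and Plcb1 and Dgkb vary little.

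Among 6 other genes linked to unipolar brush cells, 5 had positive log2 fold changes and 1, Otx2, a negative one. By edgeR 0 of them were called, where 2.08% of genes tested were, 1 had an unadjusted p of less than 0.05, and DESeq2 called 0. Calretinin (Calb2), a calcium buffer of a subset of these cells and of granule cells, averaged 645 ± 92.0 CPM in CicKO and 503 ± 94.2 CPM in Wildtype libraries (log2 fold change 0.36, SE 0.149, edgeR adjusted p = 0.289). Plcb4, a phospholipase C of Purkinje cells and of some unipolar brush cells, averaged 274 ± 25.5 CPM in CicKO and 271 ± 49.1 CPM in Wildtype libraries (log2 fold change 0.02, SE 0.121, adjusted p = 0.964). Otx2, a homeobox factor that choroid plexus also uses and that is in that list too, was at 5.01, 6.94, 53.5 and 5.40 CPM in CicKO libraries 1 to 4 and at 23.6, 11.1 and 40.3 CPM in Wildtype libraries 1 to 3. As with Sln, CicKO 1, 2 and 4 were below every Wildtype library and CicKO 3 was not (log2 fold change -0.49, SE 1.08, adjusted p = 0.869).

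With genotype as the only term and all libraries, edgeR called no listed paralog of the members and no listed calcium pump or pump regulator. The unadjusted counts below stand against 16.2% of all genes. Of 13 phospholipase C relatives 0 were called (3 at an unadjusted p below 0.05, 3 by DESeq2, and 1, Plcl2, with the replicate block), their median log2 fold change was 0.05, and Plch2, a phospholipase C of the eta type, had 0.31 (SE 0.096, adjusted p = 0.156). Of 9 diacylglycerol kinases 0 were called (1 at an unadjusted p below 0.05, 0 by DESeq2), with a median of 0.12, and Dgkz, the zeta enzyme, had 0.23 (SE 0.143, adjusted p = 0.476, or 0.0438 without CicKO 3). The calcium pump Atp2a2, the kind of protein sarcolipin inhibits, averaged 1741 CPM in CicKO and 1466 CPM in Wildtype libraries (0.25, SE 0.113, adjusted p = 0.328). Of the 5 pump and pump-regulator genes tested 0 were called (0 at an unadjusted p below 0.05, 0 by DESeq2), and edgeR called 1, the pump Atp2a3, without CicKO 3 (adjusted p = 0.0193) and without both libraries numbered 3 (0.0288). Of 15 T-box and LIM homeobox relatives tested 0 were called (4 at an unadjusted p below 0.05, 1 by DESeq2, and 2, Lhx1 and Lhx9, with the replicate block), and the median was 0.20.

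Of 15 rhombic lip genes tested 0 were called by edgeR (4 at an unadjusted p below 0.05, 1 by DESeq2, and 2, Barhl2 and Lhx9, with the replicate block), and their median log2 fold change was 0.00. Zic1, a zinc finger factor of granule cells, had 0.06 (SE 0.0601, adjusted p = 0.703), and Reln, the secreted reelin of granule cells, had 0.09 (SE 0.0823, adjusted p = 0.62). In the Gq and metabotropic glutamate cascade 1 of 22 genes was called, Prkce, a diacylglycerol-activated protein kinase C, at 216 ± 11.8 CPM in CicKO and 259 ± 5.48 CPM in Wildtype libraries (log2 fold change -0.26, SE 0.0535, adjusted p = 0.0483).

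Over the 13 related lists, 4 of 142 genes tested were called by edgeR, 2.82% against 2.08% of all genes, and with the replicate block 9 were, where 3.04% of all genes were. Besides Prkce, the 4 called without the block were Gad2, a GABA-synthesising enzyme of interneurons (-0.25, SE 0.0462, adjusted p = 0.0369), Tph2, the tryptophan hydroxylase of serotonin neurons (2.26, SE 0.354, adjusted p = 0.0227), and Neurod6, a factor of forebrain neurons (-0.70, SE 0.0872, adjusted p = 0.00796). Neurod6 was called without each single library in turn (adjusted p = 0.00685 to 0.0471), while Prkce lost its call without 6 of the 7 libraries, all but CicKO 3 (up to 0.181, without Wildtype 1), Gad2 without 5, all but CicKO 3 and Wildtype 2 (up to 0.153, without Wildtype 3), and Tph2 without 6, all but CicKO 3 (up to 0.11, without Wildtype 1). With the replicate block Prkce (adjusted p = 0.0611), Gad2 (0.0778) and Tph2 (0.081) were not called. Prkce also lost its call when edgeR used DESeq2's size factors (adjusted p = 0.0512), and it was not called in 10 of the 15 alternatives.

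The genes most like Eomes across libraries varied far less than Eomes did. Among 13226 named genes at a mean of at least 1 CPM, the 8 with the highest Pearson correlation of log2 CPM over the 7 libraries were March8, Cxxc4, Pcdh8, Hiat1, Rad50, Plcl1, Crebl2 and Snapc1, at 0.97 to 0.99 (Spearman 0.82 to 0.96). March8 was the closest, at 72.8, 81.5, 88.6 and 70.9 CPM in CicKO libraries 1 to 4 and at 79.1, 85.4 and 86.2 CPM in Wildtype libraries 1 to 3. After the group means were subtracted, the correlations were 0.97 to 0.99, in genes already picked for high correlation over the same libraries. High values are likely for the best of 13226 genes over 7 libraries, so these are a description only. Of the other members, Lmx1a ranked 203 in this order, Plcb1 2383 and Dgkb 9748. Sln and Samd3 were below a mean of 1 CPM and were not ranked.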

How the data were processed

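RNA of whole cerebellum was measured in 4 CicKO and 3 Wildtype libraries. Per the labels' protocols, cDNA was primed at poly(A) tails and at random, amplified, sheared and sequenced. The values the authors deposited are raw, unnormalized counts for each gene symbol. STAR 2.5.3a, HTSeq, DESeq2 and build mm10 are named per the submitters' processing notes. Annotation and strand setting: not given in the sources used here. The 5 HTSeq summary rows stayed out of library sizes and tests; reads assigned to no feature were 16.0% to 19.0% of entries.

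In R 4.3.3, 16905 of the 24421 genes passed filterByExpr and were scaled by TMM in edgeR 4.0.16. Genotype was the only term of the robust quasi-likelihood F test, adjusted by Benjamini-Hochberg over all genes tested and called at 0.05; all adjusted p-values are from it unless DESeq2 1.42.0 is named. The scripts were tested on simulated data. An SE is the log2 fold change over the root of its F. CPM are scaled by TMM, and log2 CPM carries a prior count of 2. Exon lengths and positions are from GENCODE M21 (GRCm38), promoters from RefSeq.

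The members and the gene lists were chosen with earlier results of these data known. Named genes are the members, up to 4 called genes and the 3 of highest mean CPM of each list, of which only those bearing on a result are printed, and the 8 genes most like Eomes. 1 gene of these lists counts in the totals and is not reported here by itself or drawn. Genes named besides these were chosen after their values were seen.

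Both groups have replicates numbered 1 to 3. Libraries sharing a number deviated together, with correlations across genes of 0.145, 0.288 and 0.713, above the limit of 0.1 for treating the numbers as pairs, so blocked values are given where they change a call or a count. Differently numbered libraries also passed it, such as CicKO 1 with Wildtype 2 (0.319). The labels do not say what a number marks.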

Additional observations from a re-analysis of the deposited data

Results flagged for a closer look

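Within the CicKO group, 10 of 54 named genes had 1 library whose gap to the nearest other, divided by the group's range, passed Dixon's 95% critical value; chance passes about 1 gene in 20, and genes of a tissue move together. In 9 of them that library was CicKO 3. No share of all genes passing this rule is given beside the count, so the count is a description only.

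The members' levels in CicKO 3 helped choose them, so their place here is a description. They were Lmx1a at 5.25 CPM in CicKO 3 against 0.226 to 0.617 CPM in the other CicKO libraries, Sln at 1.27 CPM against 0.118 to 0.162 CPM, and Samd3 at 1.56 CPM against 0.124 to 0.323 CPM. Otx2 was at 53.5 CPM in CicKO 3 against 5.01 to 6.94 CPM in the others. Of the choroid plexus genes, Ttr was at 8006 CPM in CicKO 3 against 13.9 to 91.2 CPM, Kl at 165 CPM against 1.34 to 2.59 CPM, and Clic6 at 104 CPM against 18.8 to 23.9 CPM. Among nuclei and brainstem genes, Th was at 63.3 CPM in CicKO 3 against 31.5 to 32.2 CPM, and Tph2 at 1.92 CPM against 4.57 to 5.07 CPM. Kit was at 369 CPM in CicKO 1 against 321 to 329 CPM in the others.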

How the results depend on the processing

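The count of genes called was 352 (212 higher and 140 lower in CicKO) and moved with the libraries and terms used. DESeq2 called 1170 (673 and 497), adding a choroid plexus covariate gave 692 (379 and 313), and the share of reads assigned to no feature as a covariate gave 58 (46 and 12). Leaving out single libraries gave 86 to 842 genes, 65 to 493 of them higher and 21 to 349 lower, the fewest without CicKO 1 and the most without CicKO 3. The count of members called was 0 in all settings except without CicKO 3 and without both libraries numbered 3, where it was 1, and ranged from 0 to 1 over single omissions. The members' median log2 fold change of -0.35 ranged from -1.45 (without CicKO 3) to -0.16 (without CicKO 4). Of the related genes, 4 were called, 17 by DESeq2, 9 with the replicate block, 11 with the choroid plexus score, 7 without both libraries numbered 3, 0 with the share of reads assigned to no feature, and 1 to 15 over single omissions. The median difference of library 3 was 2.01 in CicKO and 0.34 in Wildtype, and 1.75 to 2.31 and 0.33 to 0.41 over single omissions. The cause of these changes was not tested. Counts as low as 12 limit Sln, Lmx1a and Samd3 in CicKO 1, 2 and 4.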

Other observations

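A pair of noradrenergic genes, chosen here after their values were seen, had their highest level in CicKO 3, as Eomes, Lmx1a and Samd3 did, but were above every Wildtype library in CicKO 1 and 2 as well. Dbh, the enzyme that makes noradrenaline, was at 0.354, 0.940, 1.61 and 0.048 CPM in CicKO libraries 1 to 4 and at 0.033, 0.065 and 0.158 CPM in Wildtype libraries 1 to 3. Slc6a2, the noradrenaline transporter, was at 0.246, 1.03, 2.00 and 0.133 CPM in CicKO libraries 1 to 4 and at 0.024, 0.056 and 0.167 CPM in Wildtype libraries 1 to 3. Counts were low in Wildtype libraries 1 to 3, at 4, 7 and 18 for Dbh and 3, 6 and 19 for Slc6a2. In CicKO 4 they were 5 and 14. Neither was called by edgeR with genotype as the only term (adjusted p = 0.239 and 0.208). Both were called by DESeq2 and with the replicate block, which is no test of genes picked on these values.

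Xist, the transcript of the inactive X chromosome, was at 1556, 1596, 0.484 and 0.456 CPM in CicKO libraries 1 to 4 and at 1.13, 0.822 and 14.7 CPM in Wildtype libraries 1 to 3. Both libraries with high Xist, CicKO 1 and 2, were CicKO, and no Wildtype library had high Xist. CicKO 1 and 4, the lowest libraries for Eomes, Lmx1a and Slc17a6, were on opposite sides of this difference. For Sln the lowest were CicKO 1 and 2, at 0.118 and 0.137 CPM, beside 0.162 CPM in CicKO 4. The part of sex in the members' differences was not tested.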
